A study of Homo sapiens with 8 samples.

Results

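Small nucleolar RNAs (snoRNAs), the Cajal body RNAs related to them (scaRNAs), the snoRNA host genes (SNHG) and the snaRs (named SNAR) were followed across the 4 conditions of an array experiment in HCT-116, a human colorectal cancer cell line. The members were all probes, control spots left out, whose gene name on the array began with SNORA, SNORD, SCARNA, SNAR- or with SNHG and a number. They came to 408 probes for 345 genes, out of 50599 probes for 36337 genes. The set was chosen by these names after the WT+NU6102 and WT arrays had shown SNAR-G1 higher with the inhibitor, so values of WT+NU6102 against WT are given as a description and without a test. The 4 groups were untreated parental cells (WT), parental cells given 20 µM NU6102 for 24 h (WT+NU6102), untreated CDK2-/- cells (CDK2 KO), and R50, a population selected for growth in 50 µM NU6102 and kept in it. NU6102 is a purine inhibitor of the cyclin-dependent kinases CDK1 and CDK2. Each group had 2 arrays of separate cultures, which the design names biological replicates. CDK2 KO was 1 engineered line and R50 was 1 resistant population, so neither group samples independent knockouts or independent selections.

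Box C/D snoRNAs (named SNORD) guide the 2′-O-methylation of ribosomal RNA, and box H/ACA snoRNAs (named SNORA) guide its pseudouridylation. scaRNAs carry boxes of either or both kinds and guide the same modifications on spliceosomal RNAs in Cajal bodies. Most of these RNAs are cut out of introns of longer host transcripts, and SNHG genes are hosts whose spliced exons largely do not code for protein. snaRs are short, repeated RNA polymerase III transcripts.

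Values are log2 signals with the 75th percentile of all probes on the same array subtracted, so 0 is the level of that percentile and levels of different probes cannot be ranked against each other. The number of arrays, 2 a group, limits the precision of every value. RNA was purified on silica columns, which as usually run recover short RNAs poorly, and was copied with a poly-dT primer. Mature snoRNAs have no poly(A) tail, so a probe's signal from the mature RNA and from a longer precursor or host transcript that contains it cannot be told apart. Nor can a change in the share of cells that make an RNA be told apart from a change in its amount per cell. WT and WT+NU6102 lay on slide 2 and CDK2 KO and R50 on slide 1. R50 against CDK2 KO is therefore a comparison within a slide, while in CDK2 KO against WT and R50 against WT the slide and the group cannot be told apart. Arrays of a group correlated at r = 0.996 to 0.998 over the members. The CDK2 probe read -0.76 and -0.76 in WT, -0.44 and -0.42 in WT+NU6102, -1.56 and -1.51 in CDK2 KO, and -1.10 and -1.09 in R50. It was lowest in CDK2 KO (log2 difference from WT -0.77, limma adjusted p = 0.000268) but stayed above background there, and whether it lies in the deleted part of the gene is not known. All 6 epithelial markers were well above background in every group, whereas 1 of 5 fibroblast markers (COL1A1), 1 of 3 endothelial markers (CDH5) and between 2 and 4 of 4 leukocyte markers were, PTPRC and CD14 in every group.

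Of the 408 probes, 298 exceeded the background clearly on each of the 8 arrays, and 80 did so on none. A probe was tested where both arrays of at least 1 group were above background, which left 312 probes for 269 genes among 28677 tested probes. By family, 23 of 27 SCARNA, 11 of 13 SNAR, 38 of 40 SNHG, 112 of 125 SNORA and 128 of 203 SNORD probes were tested. Most of the untested SNORD probes belonged to the imprinted, brain-associated repeat clusters on chromosomes 14 and 15. None of the 8 SNORD113, 30 SNORD114, 13 SNORD115 and 11 SNORD116 probes was tested. On no array above background were 8, 28, 11 and 10 of them, in that order.

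The array letters carried the family hallmarks. The C box, searched as TGATGA in the probe as printed, was found in 24.1% of SNORD probes and in 2.89% of all 50599 probes, and the short D box CTGA in 94.1% and 29.4%. Read on the other strand, TGATGA occurred in 0.985% of SNORD probes and CTGA in 16.3%. The ACA box, searched as ACA with 3 bases left to the end of the 60-base probe, was found in 37.6% of SNORA and 40.7% of SCARNA probes and in 2.12% of all probes, with 4.8% and 0% on the other strand. CTGA can overlap TGATGA, and a match describes the probe's letters alone.

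Members were called at a Benjamini-Hochberg adjusted p under 0.05 from limma, two-sided, over all 28677 tested probes. In CDK2 KO against WT, 62 of 312 member probes were called (19.9%) beside 31.1% of all tested probes. Of these 31 were higher and 31 lower, where all probes gave 16.1% higher and 15.0% lower. In R50 against WT 83 were called (26.6%) beside 22.7% of all probes, 23 higher and 60 lower, and the background was 9.80% higher and 12.9% lower. Of the 60 lower probes 17 were of the single gene SNHG5. With 1 probe a gene 63 of 269 members were called in R50 against WT (23.4%), beside 23.4% of all tested genes. Then 21 were higher and 42 lower (7.81% and 15.6%, beside 10.3% and 13%). In R50 against CDK2 KO 89 were called (28.5%) beside 34.7% of all probes, 23 higher and 66 lower, and the background was 14.9% and 19.8%. The member medians were 0.04, -0.13 and -0.14 in these 3 comparisons, and those of all tested probes 0.02, -0.04 and -0.06. The families went different ways. Their medians in R50 against WT were 0.54 for SCARNA, -0.06 for SNORA, -0.19 for SNORD, -0.29 for SNHG and -0.54 for SNAR. In R50 against CDK2 KO they were 0.26, -0.10, -0.23, -0.13 and -0.42 in the same order, and in CDK2 KO against WT 0.18, 0.09, 0.05, -0.17 and -0.12. The SNHG medians lean on SNHG5, which had 18 of the 38 probes. With 1 probe a gene they were -0.10 in R50 against WT, -0.15 in R50 against CDK2 KO and 0.14 in CDK2 KO against WT. The counts depended on single arrays. In CDK2 KO against WT 22, 20, 28 and 41 members were called without CDK2 KO replicate 1, CDK2 KO replicate 2, WT replicate 1 and WT replicate 2. In R50 against WT 51, 39, 44 and 38 were called without R50 replicate 1, R50 replicate 2, WT replicate 1 and WT replicate 2. In R50 against CDK2 KO 39, 35, 58 and 51 were called without CDK2 KO replicate 1, CDK2 KO replicate 2, R50 replicate 1 and R50 replicate 2, and 59 in a fit of that slide alone.

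**Figure D1:**
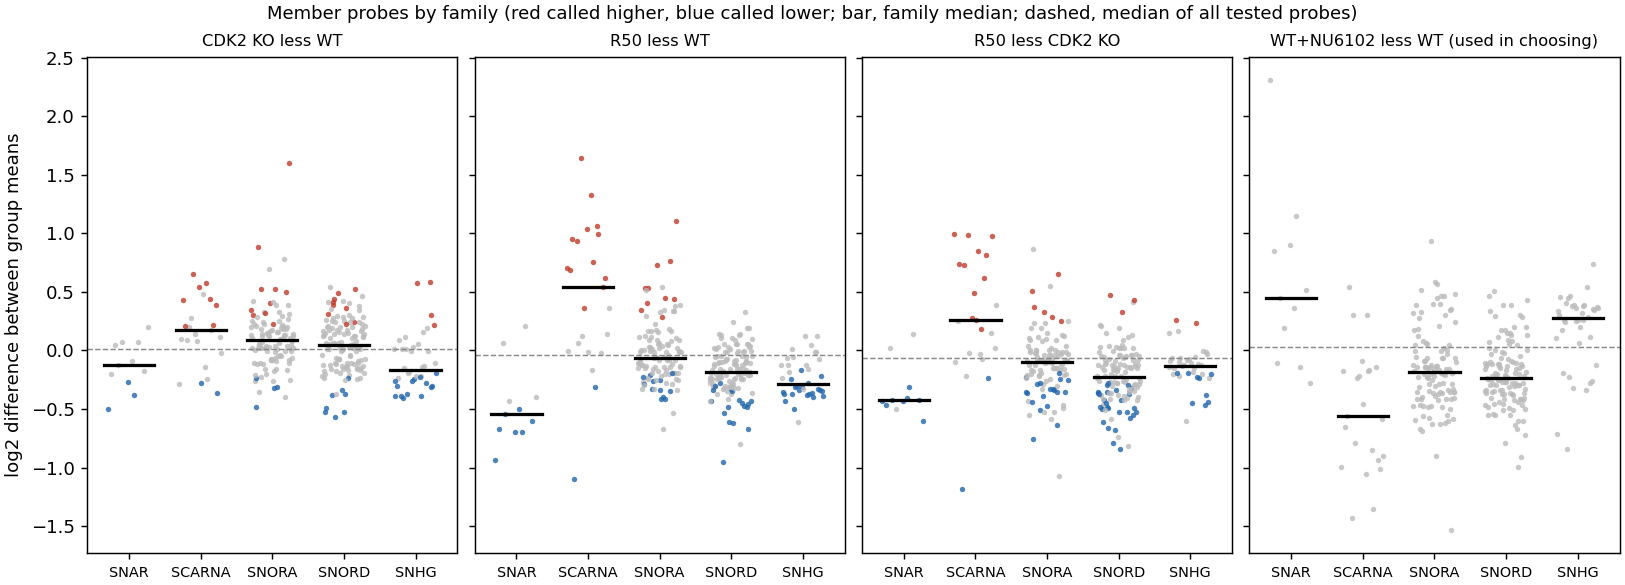
Log2 differences between group means of the 312 tested member probes by family, 1 panel for each comparison; red points were called higher and blue points lower at an adjusted p under 0.05, bars are family medians and dashed lines the median of all tested probes. In both R50 panels most SCARNA probes lay above the dashed line and most SNAR probes below it; the WT+NU6102 panel was in view when the members were chosen and has no test.

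Of the 11 tested snaR probes 7 fell in R50 against WT (63.6%, beside 12.9% of all tested probes) and none rose (beside 9.80%). The RefSeq ones are shown because close copies share signal: capitals mark the longest run of letters that a probe shares with another snaR probe (SNAR-A3 with SNAR-B2, SNAR-B2 with SNAR-D, SNAR-D with SNAR-B2, SNAR-F with SNAR-G1, SNAR-G1 with SNAR-F, SNAR-G2 with SNAR-D, SNAR-H with SNAR-B2). Positions are those of the array files in hg19, with the strand in brackets, and letters run 5′ to 3′.
SNAR-A3, chr19:48427077-48427136 (+): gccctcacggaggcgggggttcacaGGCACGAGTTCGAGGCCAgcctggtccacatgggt
SNAR-B2, chr19:50637012-50637071 (-): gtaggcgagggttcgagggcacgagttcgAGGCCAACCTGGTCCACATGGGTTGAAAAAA
SNAR-D, chr19:50643469-50643528 (-): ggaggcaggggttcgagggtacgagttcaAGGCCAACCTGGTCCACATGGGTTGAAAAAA
SNAR-F, chr19:51108271-51108330 (+): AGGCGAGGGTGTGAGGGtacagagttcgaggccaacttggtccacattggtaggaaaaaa
SNAR-G1, chr19:49540322-49540381 (+): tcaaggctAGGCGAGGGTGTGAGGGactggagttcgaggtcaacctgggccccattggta
SNAR-G2, chr19:49534934-49534993 (-): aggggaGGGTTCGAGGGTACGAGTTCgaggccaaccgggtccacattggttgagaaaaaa
SNAR-H, chr2:78182044-78182103 (-): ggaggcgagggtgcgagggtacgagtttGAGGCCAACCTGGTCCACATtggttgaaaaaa
SNAR-I, chr3:190595730-190595789 (+): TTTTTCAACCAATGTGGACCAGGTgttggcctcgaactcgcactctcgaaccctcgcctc
SNAR-B2 and SNAR-D had 31 bases in a row in common, SNAR-G2 and SNAR-D 20, SNAR-H and SNAR-B2 20, SNAR-A3 and SNAR-B2 18, and SNAR-F and SNAR-G1 17. Members of the same transcript type that are not on the array, and copies with few mismatches, can add to the same spot, so a snaR value may be that of several near-identical RNAs and not of the named copy alone. The SNAR-I probe reads the opposite strand: its capitals are a run of 24 bases shared with the reverse complement of the SNAR-H probe. The 3 remaining tested probes (SNAR-C4, SNAR-E and a second one for SNAR-G1) came from other records than the RefSeq RNAs. They shared no run of 10 bases with another snaR probe.

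SNAR-G1 was 0.26 and 0.44 in WT, -0.19 and -0.12 in CDK2 KO and -0.63 and -0.55 in R50. The 3 groups did not overlap, with R50 lowest. It fell by 0.94 on the log2 scale in R50 against WT (1.92-fold, SE 0.084, limma adjusted p = 0.00214). Against CDK2 KO it fell by 0.44 (adjusted p = 0.0124), and CDK2 KO itself was below WT by a log2 difference of -0.50 (adjusted p = 0.00863). The R50 against CDK2 KO call was lost without CDK2 KO replicate 2 or R50 replicate 1.

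SNAR-G2 was 6.80 and 6.93 in WT, 6.61 and 6.59 in CDK2 KO, and 6.18 and 6.16 in R50. Its difference in R50 against WT was -0.70 (SE 0.067, adjusted p = 0.00272), in R50 against CDK2 KO -0.43 (adjusted p = 0.00614) and in CDK2 KO against WT -0.27 (adjusted p = 0.0318). The last of these calls was lost under 6 of the other settings. SNAR-F was 5.05 and 5.16 in WT, 4.65 and 4.81 in CDK2 KO, and 4.43 and 4.40 in R50. Here too the groups were apart, with a difference of -0.69 in R50 against WT (SE 0.083, adjusted p = 0.00504), -0.38 in CDK2 KO against WT (adjusted p = 0.0204) and -0.31 in R50 against CDK2 KO (adjusted p = 0.0345, lost under 7 of the other settings). The SNAR-F call in CDK2 KO against WT was lost under 4.

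SNAR-A3 was 8.69 and 8.78 in WT, 8.60 and 8.69 in CDK2 KO, and 8.22 and 8.26 in R50. WT and CDK2 KO lay side by side and R50 below both. SNAR-A3, SNAR-B2, SNAR-D and SNAR-H fell in R50 against WT, with log2 differences of -0.50, -0.54, -0.60 and -0.67 (adjusted p between 0.00447 and 0.00651). They fell in R50 against CDK2 KO too, by log2 differences of -0.40, -0.42, -0.42 and -0.47 (adjusted p between 0.00424 and 0.00918), the comparison that lies within a slide. In CDK2 KO against WT their differences of -0.09 to -0.20 were not called (adjusted p between 0.121 and 0.277), though SNAR-H was called under 3 and SNAR-D under 2 of the other settings.

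In counts, 7 of 11 tested SNAR probes fell and 0 rose in R50 against WT, 8 fell in R50 against CDK2 KO, and 3 fell in CDK2 KO against WT. The falls were 63.6%, 72.7% and 27.3%, beside 12.9%, 19.8% and 15.0% of all tested probes. With 1 probe a gene the falls were 7, 8 and 3 of 10. The R50 against CDK2 KO count of 8 was 4 without CDK2 KO replicate 2 and 5 without R50 replicate 1, whereas the R50 against WT count stayed between 7 and 8 with any array left out. The eighth probe of R50 against CDK2 KO was SNAR-C4 (-3.24 and -3.11 in WT, -2.96 and -2.99 in CDK2 KO, -3.77 and -3.38 in R50; difference -0.60, adjusted p = 0.0309), whose call was lost under 7 of the other settings. The opposite-strand SNAR-I probe was -2.30 and -2.28 in WT, -2.30 and -2.13 in CDK2 KO and -2.07 and -2.08 in R50 (difference in R50 against WT 0.21, adjusted p = 0.0746). SNAR-E (0.06, adjusted p = 0.853) and the second SNAR-G1 probe (-0.43, adjusted p = 0.144) were not called in R50 against WT either.

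With NU6102 in parental cells, the contrast behind the choice of members, SNAR-G1 was 2.60 and 2.72, a log2 difference of 2.31 from WT (4.97-fold). SNAR-F was 6.18 and 6.32 (1.14), SNAR-G2 7.71 and 7.83 (0.90) and SNAR-H 7.86 and 7.96 (0.85). SNAR-D, SNAR-B2 and SNAR-A3 were higher by 0.52, 0.45 and 0.36, SNAR-I was lower (-0.14), and the second SNAR-G1 probe was at -4.30 and -4.34 (0.19).

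**Figure D2:**
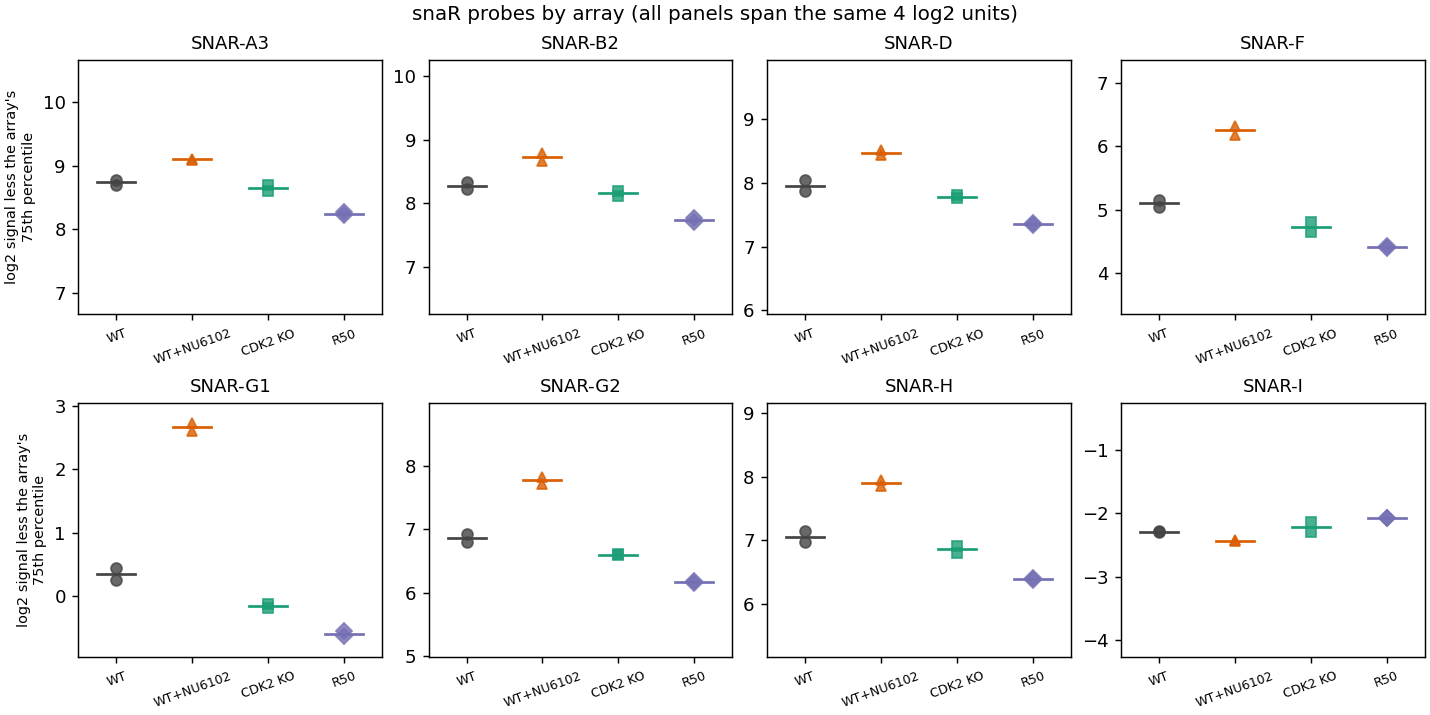
Log2 signal less the array's 75th percentile of each snaR probe on each array, 1 panel per probe with all panels spanning the same range; points are single arrays of WT, WT+NU6102, CDK2 KO and R50 and short lines the group means. In the 7 sense-strand RefSeq panels the R50 points lie lowest and the WT+NU6102 points highest, with SNAR-G1 going from -0.63 to 2.72. The WT and WT+NU6102 arrays were in view when the members were chosen.

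Of the 23 tested scaRNA probes 13 rose in R50 against WT (56.5%, beside 9.80% of all tested probes). The probes named for their rises in R50, or for their NU6102 difference, are printed to show how they differ: none of the 23 tested SCARNA probes shares a run of 20 bases with a probe of another member gene, where 4 of 11 SNAR probes do. Capitals mark an ACA with 3 bases left to the probe's end, where there is one.
SCARNA11, chr12:6690639-6690698 (-): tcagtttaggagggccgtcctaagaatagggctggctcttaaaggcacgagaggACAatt
SCARNA14, chr15:66639555-66639614 (-): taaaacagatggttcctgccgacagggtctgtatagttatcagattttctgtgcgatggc
SCARNA8, chr9:19063664-19063723 (-): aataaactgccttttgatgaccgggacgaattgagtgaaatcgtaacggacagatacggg
SCARNA4, chr1:155895772-155895831 (-): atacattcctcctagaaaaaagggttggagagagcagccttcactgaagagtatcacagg
SCARNA1, chr1:28161018-28161077 (+): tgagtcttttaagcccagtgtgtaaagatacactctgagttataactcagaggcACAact
SCARNA16, chr17:75085516-75085575 (+): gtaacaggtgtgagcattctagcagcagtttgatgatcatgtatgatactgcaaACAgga
SCARNA20, chr17:58308877-58308936 (-): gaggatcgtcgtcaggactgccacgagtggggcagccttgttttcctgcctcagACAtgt

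SCARNA11, held in an intron of the chromatin remodeller gene CHD4, was -1.88 and -1.75 in WT, -1.15 and -1.18 in CDK2 KO, and -0.14 and -0.22 in R50. The groups rose stepwise without overlap. The rise in R50 against WT was 1.64 (3.12-fold, SE 0.080, adjusted p = 0.000392), in CDK2 KO against WT 0.65 (adjusted p = 0.00315) and in R50 against CDK2 KO 0.99 (adjusted p = 0.000697). SCARNA14 was 0.55 and 0.75 in WT, 1.27 and 0.998 in CDK2 KO, and 2.09 and 1.87 in R50, higher in R50 than WT by 2.51-fold (SE 0.145 on the log2 scale, adjusted p = 0.00394). SCARNA8 was -1.34 and -1.14 in WT, -0.83 and -0.77 in CDK2 KO, and -0.05 and -0.31 in R50 (1.06 against WT, adjusted p = 0.00332). SCARNA4 was -3.39 and -3.72 in WT, -2.97 and -3.06 in CDK2 KO, and -2.48 and -2.57 in R50 (1.03, adjusted p = 0.00397). For each of these 4 the R50 arrays were above the CDK2 KO arrays and these above the WT arrays. The 4 were named for their rises in R50 against WT, so R50 above WT follows from that choice. The share of all tested probes with this order was not counted.

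Of SCARNA1 (-2.94 and -2.81 in WT, -2.65 and -2.75 in CDK2 KO, -1.84 and -1.92 in R50) and SCARNA20 (-0.16 and -0.14 in WT, -0.01 and 0.11 in CDK2 KO, 0.84 and 0.72 in R50) the CDK2 KO arrays lay near WT and the R50 arrays above both. SCARNA1 rose by 0.82 against CDK2 KO (adjusted p = 0.0117, lost without CDK2 KO replicate 2 or R50 replicate 1) and SCARNA20 by 0.73 (adjusted p = 0.00161). SCARNA13 rose by 0.95 against WT (adjusted p = 0.000585) and 0.74 against CDK2 KO (adjusted p = 0.000537). SCARNA16, read by 2 probes with the same letters, was 2.04 and 2.24 in WT, 1.87 and 1.84 in CDK2 KO and 2.96 and 2.73 in R50 on the first probe. It rose in R50 against CDK2 KO by 0.99 and 0.98 on its 2 probes (adjusted p = 0.00143 and 0.000668), while in CDK2 KO it was at -0.28 and -0.36 from WT (adjusted p = 0.0873 and 0.0206). For SCARNA3 the 2 CDK2 KO arrays (both -2.28) were nearer to R50 (-2.11 and -2.09) than to WT (-2.86 and -2.85), with differences from WT of 0.58 (adjusted p = 0.000559) and 0.76 (adjusted p = 0.000517). R50 was above CDK2 KO by 0.18 (adjusted p = 0.0226, lost under 6 of the other settings).

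In counts, 13 of 23 tested SCARNA probes rose and 2 fell in R50 against WT (56.5% and 8.7%, beside 9.80% and 12.9% of all tested probes). In R50 against CDK2 KO 12 rose and 2 fell (52.2% and 8.7%, beside 14.9% and 19.8%). In CDK2 KO against WT 8 rose and 2 fell (34.8% and 8.7%, beside 16.1% and 15.0%). With 1 probe a gene, 12 of 22 rose in R50 against WT and 11 in R50 against CDK2 KO. Leaving out any array kept the R50 against WT count between 10 and 14, but the R50 against CDK2 KO count of 12 was 7 without CDK2 KO replicate 1, CDK2 KO replicate 2 or R50 replicate 1. The falls were SCARNA2 in R50 against WT (-0.31, adjusted p = 0.0399), SCARNA17 in R50 against CDK2 KO (-0.24, adjusted p = 0.0238), SCARNA9 (-0.28, adjusted p = 0.0432) and the second SCARNA16 probe in CDK2 KO against WT, and SCARNA15 in both R50 comparisons. The SCARNA15 probe, which does not come from the RefSeq RNA, was not well above background on either R50 array, so only a bound exists there and no difference is given. SCARNA2, SCARNA9, SCARNA13, SCARNA15 and SCARNA17 were named after their values were seen.

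With NU6102 in parental cells SCARNA20 was -1.65 and -1.52, SCARNA1 -3.99 and -4.46, SCARNA14 -0.52 and -0.29, and SCARNA11 -2.69 and -2.52. As log2 differences from WT these were -1.43, -1.35, -1.06 and -0.79. SCARNA16 was lower by 2.02-fold on its second probe. The family median was -0.56. SCARNA3 and SCARNA4 stood near WT there, at -0.18 and -0.09.

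**Figure D3:**
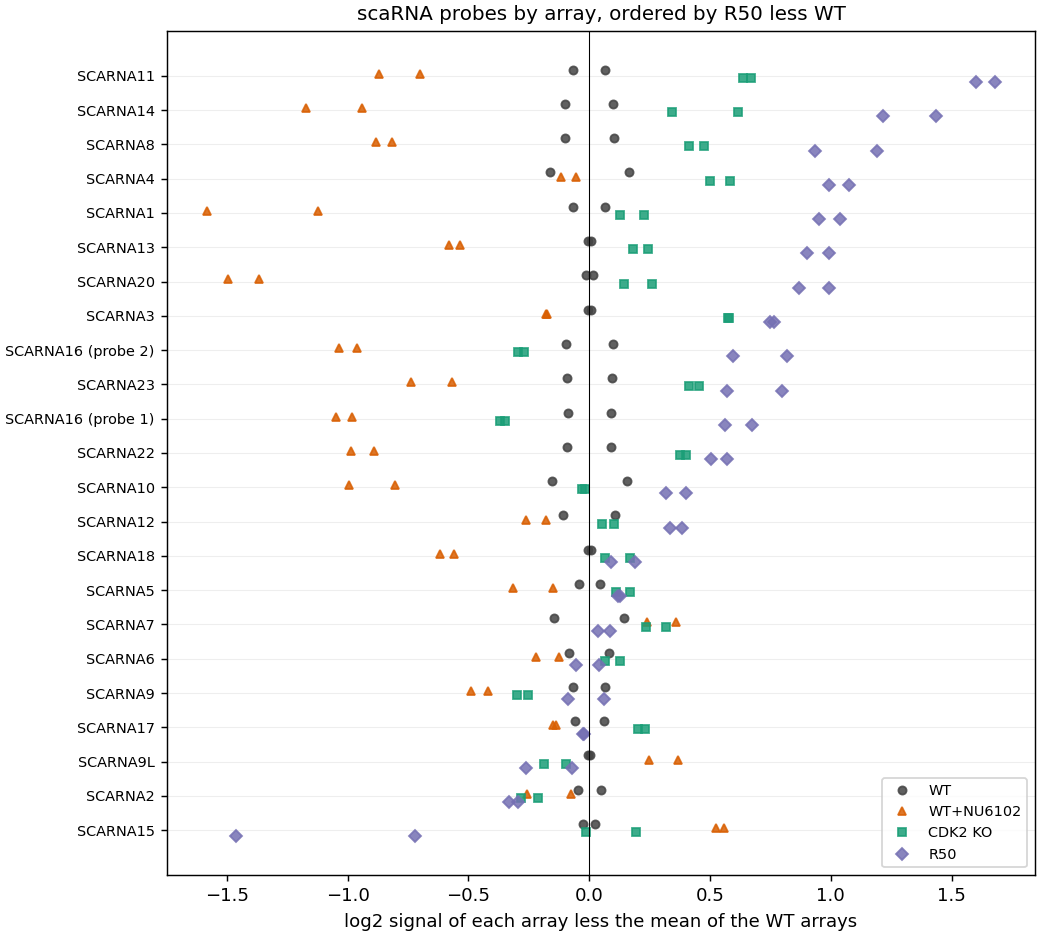
Log2 signal of each array less the mean of the WT arrays for the tested SCARNA probes, ordered by R50 less WT; points are single arrays, coloured by group. The R50 points of SCARNA11, SCARNA14, SCARNA8 and SCARNA4 lie farthest to the right, beyond those of CDK2 KO, and most WT+NU6102 points lie left of 0.

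The scaRNAs and the genes that hold them did not move alike. Host genes were matched through the RefSeq gene table, and 19 tested SCARNA probes lay in 17 hosts that were themselves tested. In R50 against WT the median difference was 0.68 for these scaRNAs and -0.03 for their hosts, 13 scaRNA probes rose, and of the 17 hosts 0 rose and 4 fell. Against CDK2 KO the R50 medians were 0.38 and -0.20, 12 scaRNA probes rose, and 1 host rose and 9 fell. Of all tested probes 9.80% rose and 12.9% fell in R50 against WT, and 14.9% rose and 19.8% fell in R50 against CDK2 KO. CHD4, the host of SCARNA11, differed by 0.00 in R50 against WT (adjusted p = 0.99) and by 0.01 in CDK2 KO (adjusted p = 0.915). TIPIN, a replication fork gene that holds SCARNA14, fell by 0.67 in R50 against WT (adjusted p = 0.00163). HAUS6, which holds SCARNA8, differed by -0.15 (adjusted p = 0.0987), KIAA0907, which holds SCARNA4, by 0.01 (adjusted p = 0.911), and USP32, which holds SCARNA20, by 0.02 (adjusted p = 0.941). PPP1R8, which holds SCARNA1, fell by 0.49 in R50 against CDK2 KO (adjusted p = 0.00803), where SCARNA1 rose.

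The largest called rises among the box H/ACA snoRNAs in CDK2 KO were SNORA79 and SNORA76. Both probes are printed, without capitals since neither has the ACA box in the place searched. SNORA76 is now named SNORA50C.
SNORA79, chr14:81669040-81669099 (-): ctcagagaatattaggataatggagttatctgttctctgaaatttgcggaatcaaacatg
SNORA76, chr17:62223722-62223781 (+): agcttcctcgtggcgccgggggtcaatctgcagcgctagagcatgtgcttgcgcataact
SNORA79, in an intron of the basal transcription factor gene GTF2A1, was -2.57 and -2.49 in WT, -0.83 and -1.03 in CDK2 KO, and -1.22 and -1.63 in R50. It rose in CDK2 KO against WT by 1.60 (3.03-fold, SE 0.165, adjusted p = 0.00173) and in R50 against WT by 2.15-fold (adjusted p = 0.00965, lost without WT replicate 1). R50 differed from CDK2 KO by -0.49, which was not called (adjusted p = 0.0681). GTF2A1 itself rose by 0.32 in CDK2 KO (adjusted p = 0.00918) and was at -0.16 in R50 against WT (adjusted p = 0.0916). With NU6102 SNORA79 was -4.19 and -3.93, a difference of -1.54 from WT.

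SNORA76 was 2.65 and 2.78 in WT, 3.62 and 3.58 in CDK2 KO, and 2.90 and 2.78 in R50. R50 lay beside WT, and the difference was 0.88 in CDK2 KO against WT (adjusted p = 0.000689), -0.76 in R50 against CDK2 KO (adjusted p = 0.000994) and 0.13 in R50 against WT (adjusted p = 0.244). A second, dimmer SNORA76 probe from another record gave 0.38, -0.04 and 0.34 in that order, and was not called. Over the family 10 SNORA probes of 112 rose and 4 fell in CDK2 KO against WT, 10 rose and 12 fell in R50 against WT, and 6 rose and 19 fell in R50 against CDK2 KO. The falls were 3.57%, 10.7% and 17.0% of the family, at or below the 15.0%, 12.9% and 19.8% of all probes, and the rises 8.93%, 8.93% and 5.36%, below the 16.1%, 9.80% and 14.9%. Among SNORA70 copies, which share runs of 20 bases or more, SNORA70B, SNORA70C and SNORA70E rose in R50 against WT by 0.40, 0.44 and 0.45 (adjusted p between 0.00653 and 0.0157) while SNORA70, SNORA70D, SNORA70F and SNORA70G (-0.11 to 0.23) were not called. SNORA12 rose on both of its probes in R50, by 0.77 and 0.53 against WT (adjusted p = 0.00116 and 0.00731) and by 0.66 and 0.51 against CDK2 KO, and its host CWF19L1 was at -0.13 and -0.08. It and the SNORA70 copies were named after their values were seen.

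All called box C/D snoRNAs in R50 against WT were lower. Of 128 tested SNORD probes 18 fell (14.1%, beside 12.9% of all tested probes) and 0 rose (beside 9.80%) in R50 against WT. Against CDK2 KO, in R50 28 fell (21.9%, beside 19.8%) and 3 rose (2.34%, beside 14.9%), and in CDK2 KO against WT 9 rose and 8 fell (7.03% and 6.25%, beside 16.1% and 15.0%). The shares of falls were thus near those of all probes in the 2 R50 comparisons and below them in CDK2 KO against WT. The shares of rises were below those of all probes in all 3. The count of 28 was 18 in a fit of the slide that held both groups, 13 and 11 without CDK2 KO replicates 1 and 2, and 14 without R50 replicate 2. The 4 SNORD probes with the largest named falls in R50 against CDK2 KO, and the 4 with the largest falls in CDK2 KO against WT, are printed. Capitals mark the first TGATGA and the last CTGA after it, or either alone, where they were found. They mark letters and need not be the C or D box of the RNA.
SNORD86, chr20:2636769-2636828 (+): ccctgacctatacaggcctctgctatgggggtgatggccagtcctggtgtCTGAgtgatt
SNORD77, chr1:173835449-173835508 (-): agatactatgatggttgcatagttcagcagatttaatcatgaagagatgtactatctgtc
SNORD126, chr14:20794601-20794660 (-): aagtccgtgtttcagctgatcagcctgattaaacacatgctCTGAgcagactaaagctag
SNORD30, chr11:62621135-62621194 (-): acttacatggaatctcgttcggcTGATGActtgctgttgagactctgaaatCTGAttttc
SNORD84, chr6:31508892-31508951 (-): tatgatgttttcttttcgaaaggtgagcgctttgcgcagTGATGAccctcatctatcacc
SNORD43, chr22:39715057-39715116 (-): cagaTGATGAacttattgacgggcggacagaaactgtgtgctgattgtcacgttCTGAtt
SNORD45C, chr1:76252775-76252834 (+): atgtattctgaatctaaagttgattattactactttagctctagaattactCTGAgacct
SNORD45A, chr1:76253598-76253657 (+): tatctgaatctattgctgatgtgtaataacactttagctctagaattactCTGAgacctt

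SNORD86 was 3.10 and 3.07 in WT, 3.32 and 3.30 in CDK2 KO, and 2.45 and 2.48 in R50. It fell in R50 by 0.84 against CDK2 KO (1.79-fold, SE 0.044, adjusted p = 0.000189) and by 0.62 against WT (adjusted p = 0.00109). Its host NOP56, the gene of a core protein of the box C/D particle itself, fell too, by 0.59 and 0.35 (adjusted p = 0.000669 and 0.00737). SNORD30 was -0.85 and -0.77 in WT, -0.44 and -0.41 in CDK2 KO, and -1.08 and -1.09 in R50. Both CDK2 KO arrays were above WT (0.39, adjusted p = 0.0032) and both R50 arrays below it (-0.27, adjusted p = 0.0154), and R50 against CDK2 KO gave -0.66 (adjusted p = 0.000486). SNORD77 was -2.43 and -2.17 in WT, -1.73 and -1.89 in CDK2 KO, and -2.50 and -2.71 in R50, a fall of 1.73-fold against CDK2 KO (adjusted p = 0.00551). SNORD126 differed by -0.68 (adjusted p = 0.00213) against CDK2 KO, with its host CCNB1IP1 at 0.05 (adjusted p = 0.486).

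The largest falls against WT in R50 were those of SNORD41 and SNORD61. SNORD41 was 0.33 and 0.62 in WT, -0.04 and 0.25 in CDK2 KO, and -0.30 and -0.65 in R50 (-0.95, adjusted p = 0.0187). SNORD61 was -2.56 and -2.40 in WT, -2.50 and -2.75 in CDK2 KO, and -2.96 and -3.34 in R50 (-0.67, adjusted p = 0.0317). Both R50 arrays lay below both WT arrays for each, and the calls were lost under 4 and 7 of the other settings. The largest of the 8 falls in CDK2 KO against WT were SNORD84 (-0.57, adjusted p = 0.0114), SNORD43 (-0.53, adjusted p = 0.0075), SNORD45C (-0.52, adjusted p = 0.00696) and SNORD45A (-0.49, adjusted p = 0.042). The SNORD84 and SNORD45A calls were lost under 2 and 8 of the other settings. SNORD84 was -0.99 and -0.86 in WT, -1.40 and -1.60 in CDK2 KO, and -0.95 and -1.10 in R50, so R50 lay beside WT. SNORD45A and SNORD45C share a run of 20 bases or more and lie in RABGGTB, which fell by 0.36 in CDK2 KO (adjusted p = 0.00421), whereas RPL3, which holds SNORD43, differed by -0.01 (adjusted p = 0.879).

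snoRNAs of the same host could be set beside one another and beside the host. GAS5, a noncoding host like the SNHG genes, held 8 tested genes (SNORD44, SNORD47, SNORD74 to SNORD77, SNORD79 and SNORD80). GAS5 in R50 against CDK2 KO differed by -0.29 (adjusted p = 0.0125), and its 8 snoRNAs by -0.79 to -0.11 with a median of -0.47, of which 4 were called. SNHG1 differed by -0.44 (adjusted p = 0.00171) and its 8 (SNORD22 and SNORD25 to SNORD31) by -0.66 to -0.14, with a median of -0.40 and 5 called. NOP56 gave -0.59 beside a median of -0.47 over 4 snoRNAs, of which 2 were called. The noncoding host LOC388796 gave -0.37 (adjusted p = 0.0179) beside -0.35 for SNORA71A to SNORA71D, all 4 called, though SNORA71A, SNORA71C and SNORA71D share runs of 20 bases or more. For these host sets 1 probe a snoRNA gene was taken, the first by probe name. The second probes of SNORA71A and SNORA71C gave -0.21 and -0.09 and were not called.

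Not every host went with its snoRNAs. The ribosomal protein host RPL13A differed by 0.01 and its 4 snoRNAs by a median of -0.24, with 1 called. RPL7A gave -0.15 beside a median of -0.41, with 2 of 4 called. RPL4 and SNHG12 gave -0.06 and -0.11 (adjusted p = 0.401 and 0.27). Their snoRNAs, 4 each, all lay below 0 with medians of -0.15 and -0.18, and 0 were called. Of all 128 tested SNORD probes 109 lay below 0 in R50 against CDK2 KO, beside 16642 of 28677 tested probes. TAF1D rose by 0.26 (adjusted p = 0.0339) while its 7 snoRNAs had a median of -0.03 and 2 fell. As a description, across the 98 SNORD probes in 50 tested hosts the differences of member and host in R50 against CDK2 KO had a Pearson r of 0.48 and a Spearman rho of 0.47, in CDK2 KO against WT 0.38 and 0.41, and in R50 against WT 0.13 and 0.09. Across the 19 SCARNA probes these were -0.19 and -0.22, -0.11 and -0.23, and -0.17 and -0.05. Points that share a host or an array are not independent, and no p is given.

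**Figure D4:**
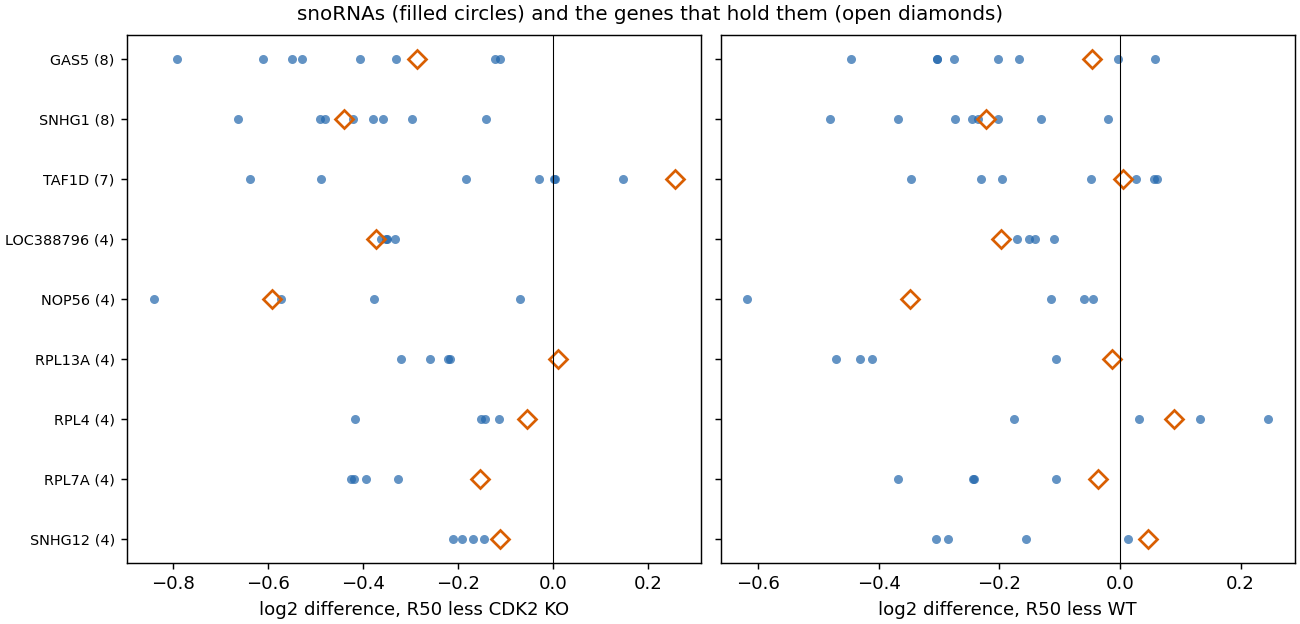
Log2 differences of tested snoRNAs (filled circles) and of the gene that holds them (open diamonds) for the 9 hosts with 4 or more snoRNA genes, with the number of snoRNA genes in brackets. In R50 against CDK2 KO all circles lie below 0 for every host but TAF1D, whose diamond lies at 0.26. The diamonds of GAS5 and SNHG1 lie at -0.29 and -0.44, and those of RPL13A, RPL4 and SNHG12 at 0.01, -0.06 and -0.11.

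Of the 12 SNHG genes, read on the brightest probe of each, 4 rose and 4 fell in CDK2 KO against WT. These were 33.3% each, beside 16.6% and 14.7% of all tested genes read in this way. In R50 against WT 0 rose and 3 fell (0% and 25%, beside 10.3% and 13%). In R50 against CDK2 KO 1 rose and 4 fell (8.33% and 33.3%, beside 15% and 20.2%). SNHG4 was -1.60 and -1.74 in WT, -1.08 and -1.08 in CDK2 KO, and -1.62 and -1.47 in R50. It rose in CDK2 KO by 0.59 (SE 0.102, adjusted p = 0.00963) and was lower in R50 than in CDK2 KO (-0.46, adjusted p = 0.019). A second, dimmer SNHG4 probe, above background on 4 arrays, did not show the rise. It gave -0.01 in CDK2 KO against WT, -0.61 in R50 against CDK2 KO and -0.61 in R50 against WT, and was not called. SNHG13, now named DANCR, was 1.67 and 1.72 in WT, 2.26 and 2.28 in CDK2 KO, and 1.74 and 1.90 in R50. It rose by 0.58 in CDK2 KO (SE 0.065, adjusted p = 0.00237) and was lower in R50 than in CDK2 KO (-0.45, adjusted p = 0.00477), with R50 at 0.13 from WT (adjusted p = 0.221). SNHG1 and SNHG9 rose in CDK2 KO by 0.22 and 0.31 (adjusted p = 0.0202 and 0.0245), and R50 was at -0.44 and -0.38 from CDK2 KO (adjusted p = 0.00171 and 0.0109). The calls in CDK2 KO against WT were lost under 6 (SNHG1), 5 (SNHG9) and 2 (SNHG4) of the other settings. Those in R50 against CDK2 KO were lost under 3 (SNHG9) and 4 (SNHG4).

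The 4 that fell in CDK2 KO were SNHG6, SNHG8, SNHG7 and SNHG5, at -0.41, -0.39, -0.38 and -0.24 (adjusted p between 0.00519 and 0.0235). The calls of SNHG8, SNHG7 and SNHG5 there were each lost under 4 of the other settings. SNHG6, SNHG5 and SNHG1 fell in R50 against WT, with differences of -0.25, -0.32 and -0.22, and SNHG8 rose in R50 against CDK2 KO by 0.26. These calls were lost under 11 (SNHG6), 5 (SNHG5), 10 (SNHG1) and 8 (SNHG8) of the other settings, quantile normalization among them for SNHG6 and SNHG1. SNHG10, SNHG11, SNHG12 and SNHG3 were not called on their brightest probe in these 3 comparisons. SNHG5 was spotted as 18 probes. Of the family's 38 probes 14 were lower in CDK2 KO against WT, 21 in R50 against WT and 9 in R50 against CDK2 KO. These were 36.8%, 55.3% and 23.7%, beside 15.0%, 12.9% and 19.8% of all tested probes. SNHG5 gave 9, 17 and 3 of them, so the first 2 counts are mostly counts of that gene. Its 18 probes differed by -0.43 to -0.28 in R50 against WT and 17 were called. With NU6102 SNHG9 was 5.24 and 5.42 beside 4.56 and 4.62 in WT (0.74), and SNHG3 was 4.01 and 3.92 beside 4.74 and 4.89 (-0.84).

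Protein genes for making, assembling and packaging these RNAs came to 59, 1 probe each, all of them tested. In R50 against WT 1 rose and 23 fell (1.69% and 39.0%, beside 9.80% and 12.9% of all probes). In R50 against CDK2 KO 6 rose and 30 fell (10.2% and 50.8%, beside 14.9% and 19.8%), and in CDK2 KO against WT 13 rose and 11 fell (22.0% and 18.6%, beside 16.1% and 15.0%). Their medians were -0.15, -0.22 and 0.08. The R50 against WT count of 24 was between 2 and 13 without any one of the 8 arrays (13 without either CDK2 KO or WT+NU6102 array, 7 and 8 without R50 replicates 1 and 2, 2 and 6 without WT replicates 1 and 2) and 13 after quantile normalization. The CDK2 KO against WT count of 24 was 10, 9, 9 and 11 without CDK2 KO replicate 1, CDK2 KO replicate 2, WT replicate 1 and WT replicate 2.

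The RNAs for all 4 core proteins of the box C/D particle fell in R50 against WT, and protein levels were not measured. NOP56 was at -0.35 (adjusted p = 0.00737), NOP58 at -0.27 (adjusted p = 0.031), NHP2L1 (SNU13) at -0.24 (adjusted p = 0.0342) and the methyltransferase FBL at -0.18 (adjusted p = 0.0466). Of the RNAs for the 4 core proteins of the H/ACA particle, those of the pseudouridine synthase DKC1 (-0.18, adjusted p = 0.0373) and GAR1 (-0.21, adjusted p = 0.041) fell. Those of NHP2 (0.01, adjusted p = 0.96) and NOP10 (-0.05, adjusted p = 0.548) were not called. The DKC1 and GAR1 calls were lost under 11 of the other settings, that of FBL under 12, those of NOP58 and NHP2L1 under 8 and that of NOP56 under 1. NOP56 (-0.59), GAR1 (-0.35) and NOP10 (-0.27) fell in R50 against CDK2 KO. Of 20 genes for particle assembly and Cajal bodies 8 fell and 0 rose in R50 against WT (40% and 0%, beside 12.9% and 9.80% of all tested probes). In R50 against CDK2 KO 13 fell and 0 rose (65% and 0%, beside 19.8% and 14.9%). COIL, the gene of the Cajal body scaffold protein, chosen after its value was seen, rose in CDK2 KO by 0.58 (adjusted p = 0.00774) and fell in R50 against CDK2 KO by 0.62 (adjusted p = 0.00515). Of the 31 remaining genes, most of them of RNA polymerase III transcription, 1 rose and 9 fell in R50 against WT (3.23% and 29%, beside 9.80% and 12.9%). In R50 against CDK2 KO 6 rose and 14 fell (19.4% and 45.2%, beside 14.9% and 19.8%). In CDK2 KO against WT 6 rose and 8 fell (19.4% and 25.8%, beside 16.1% and 15.0%).

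In WT+NU6102 against WT the threshold used for the other comparisons was passed by 44.8% of all probes, 23.8% higher and 21.0% lower, and by 139 of 312 member probes, 45 higher and 94 lower. Since this contrast was in view when the members were chosen, these member counts are no test and nothing is read from them.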

How the data were processed

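RNA of 8 HCT-116 cultures was labelled with Cy3 in a single colour and hybridised to Agilent arrays. The authors deposited scanner files made with Agilent Feature Extraction 11.5.1.1, whose processed signals are background-subtracted, detrended intensities not normalized between arrays. They also deposited a table of log2 values for 28719 probes; set against the scanner files, it equals the log2 signal less a constant for each array, centred per probe. The arrays' gene names were used, 345 of 345 member names matched the RefSeq gene table (GRCh38.p14), and that table was used for current names and for which gene holds which snoRNA. Probe positions are those of the array files, hg19 per the file headers of the WT and WT+NU6102 arrays.

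From the intensities, log2 of the processed signal less its 75th percentile on each array was taken over unflagged spots that are not controls, and spots of a probe were averaged. A probe entered the tests if 1 or more groups had it well above background on each of their arrays. Between 32376 and 36206 spots an array were above background and 0 were saturated. A model of 4 group means was fitted in limma 3.58.1 (R 4.3.3, lmFit and eBayes), two-sided, with Benjamini-Hochberg adjustment over 28677 probes and calls at an adjusted p under 0.05. The tested comparisons were CDK2 KO and R50 against WT and R50 against CDK2 KO. For WT+NU6102 against WT no p-value is given, and counts past the threshold stand only beside the share of all probes. P-values measure the spread between 2 arrays a group. The fit was tried on simulated data for R50 against WT with 28677 probes. Of these, 100 were changed by 0.5 and 100 by 1 on the log2 scale, with spreads shuffled over the probes. The fit recovered 31% of the changes of 0.5 and 66% of those of 1, and 6.7% of its calls were unchanged probes. In the real comparison 22.7% of probes were called, so these shares need not hold there.

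The members and all lists were chosen with earlier results of these data known. Named were all tested snaRs, SNHG genes (brightest probe), the 5 largest called rises and falls in each tested comparison and the 5 highest and lowest NU6102 differences (among probes above background on the 4 arrays compared), 8 core particle proteins, and the SNORD113 to SNORD116 clusters; 1 further gene of the rule is not reported here. Genes named outside this rule are marked in the text or stand for a host. Other settings tried were quantile normalization, normexp (offset 50) for the background, the authors' values, no filter, a filter on all 8 arrays, a trended prior, a minimum log2 change of 1, the methods' t-test, 1 probe a gene, the slide holding both groups, a replicate block and leaving out each array. Figures were drawn with matplotlib 3.10.9.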

Additional observations from a re-analysis of the deposited data

How the results depend on the processing

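No called difference of a named gene changed direction, and no uncalled one was called in the opposite direction. Changes of sign in uncalled differences that stayed uncalled were not counted. Of 94 called ones, 1142 of 1410 alternative values kept the call and 268 lost it, and of 65 not called 39 of 972 gained it. Another scaling moved the median of all probes by at most 0.1, in CDK2 KO against WT from 0.02 to -0.0041 after quantile normalization, where members called higher and lower went from 31 and 31 to 28 and 37 (41 and 36 with normexp). A minimum log2 change of 1 left 1, 6 and 1 members in CDK2 KO against WT, R50 against WT and R50 against CDK2 KO, 4 SCARNA probes higher in R50 against WT, and 0 for the other family counts and for the protein genes. Without a filter, 22, 30 and 41 members, 8, 1 and 23 protein genes and, in R50 against CDK2 KO, 15 SNORD probes were called. A trended prior gave 94 members in CDK2 KO against WT, quantile normalization 13 protein genes in R50 against WT, and the slide of R50 and CDK2 KO alone 59 members and 18 SNORD probes. The methods' t-test called 73 members in R50 against WT (7420 probes in all) at an unadjusted p under 0.05, and 0 (13) after Benjamini-Hochberg. The cause of these shifts was not tested.

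Leaving out 1 array in turn gave 20 to 59 members in CDK2 KO against WT, 38 to 68 in R50 against WT and 35 to 82 in R50 against CDK2 KO. In the same order protein genes ranged over 9 to 23, 2 to 13 and 24 to 33. In R50 against CDK2 KO the count was 7 to 12 for SCARNA probes, 4 to 8 for SNAR probes and 11 to 33 for SNORD probes. In R50 against WT it was 10 to 14 for SCARNA and 7 to 8 for SNAR probes. The SNAR-G1 difference with NU6102 ran from 2.22 to 2.40. Samples with the same replicate number did not deviate together (r from -0.028 to 0.0452). With the replicate block 51, 74 and 74 members, 23, 17 and 33 protein genes, and 13 SCARNA and 7 SNAR probes in R50 against WT were called. The 2 arrays a group and the dim probes near background limit every count.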
